A study of Mus musculus with 4 samples.

Results

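Ubiquitin ligases, their substrate adaptors and deubiquitinases were examined for listed sites of N6-methyladenosine (m6A), a methylated adenosine found inside messenger RNA. Members were chosen by name alone, as every row whose gene symbol began with Usp, Rnf, Trim, Klhl, Fbxo, Fbxl or Fbxw followed by a digit. This gave 218 listed sites at 192 distinct positions in 97 genes, of 11986 listed sites at 10598 positions in 5526 named genes. The study sorted astrocytes and microglia from mouse cortex and made 2 libraries of each. All 4 libraries came from mice of genotype APOBEC1-YTH, named for a protein that joins the cytidine deaminase APOBEC1 to the m6A-binding YTH domain. The mice were 10 weeks old when tamoxifen was started, were dosed at 20 mg/kg at intervals of 24 hours over 5 days, and tissue was collected 7 days after the last dose. No untreated or transgene-free group was analysed here, and the labels do not say whether the 2 libraries of a type came from separate animals. The spread between libraries may therefore be technical.

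Ubiquitin is a small protein that is attached to other proteins and marks them for the proteasome, for sorting or for signalling. An activating enzyme passes it to a conjugating enzyme, and a ligase then chooses the substrate. Rnf and Trim genes mostly encode ligases with a RING domain, and Trim proteins add a B-box and coiled coil. Klhl proteins bring substrates to the ligase built on cullin 3, and Fbxo, Fbxl and Fbxw proteins are F-box subunits that can bring substrates to the ligase built on cullin 1. Usp proteins remove ubiquitin again. Usp6nl met the naming rule but encodes an activator of Rab GTPase hydrolysis and not a deubiquitinase. Its 1 site, in microglia 2, was kept in the counts.

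GLORI converts unmethylated adenosine to a base that is read as G, so the level at a site is the percent of reads that still carry A. The deposited tables give the level without the number of reads behind it. The depth is therefore unknown, and no counting interval can be given for a level. Astrocyte 1 listed 4790 sites in named genes, astrocyte 2 listed 2348, microglia 1 listed 1066 and microglia 2 listed 3782. A site missing from a table may lack methylation, may have failed a calling threshold or may not have been read. Library names are labels only, because the marker genes did not follow them. Of 16 astrocyte markers, astrocyte 1 had a site in 14, astrocyte 2 in 1, microglia 1 in 0 and microglia 2 in 12. Of 16 microglia markers, the same libraries had a site in 1, 14, 12 and 1. Of 8 oligodendrocyte markers, 6 had a site in astrocyte 1 and 6 in microglia 2, with 0 in the other two. Of 8 neuron markers, 2 had a site in astrocyte 1, 1 in microglia 1 and 0 in the replicate 2 libraries. Each comparison of the types below rests in part on the replicate 2 libraries, whose markers ran against their labels.

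The families were listed broadly in 3 libraries and hardly in the other. Of the 97 genes, astrocyte 1 had sites in 50, astrocyte 2 in 36, microglia 1 in 4 and microglia 2 in 58. The 4 genes of microglia 1 were Klhl15, Usp11, Fbxo21 and Trim58, with 1 site each. As a share of sites in named genes, the families made up 1.73% in astrocyte 1 (83 sites, exact Clopper-Pearson 95% interval 1.38 to 2.14). The share was 1.79% in astrocyte 2 (42 sites, interval 1.29 to 2.41), 0.375% in microglia 1 (4 sites, interval 0.102 to 0.958) and 2.35% in microglia 2 (89 sites, interval 1.89 to 2.89). The interval of microglia 1 lay below those of the other 3 libraries. These intervals cover the counting of sites only.

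Set against the gene catalogue, a site was listed in at least 1 library for 97 of 322 protein-coding genes of these families in RefSeq, or 30.1%. The same value over all protein-coding genes was 22.0% (4809 of 21900). By library it was 15.5% of the families and 12.8% of all protein-coding genes in astrocyte 1, 11.2% and 6.87% in astrocyte 2, and 18.01% and 10.8% in microglia 2. In microglia 1 the order turned, with 1.24% of the families and 3.07% of all protein-coding genes. Genes that these cells do not transcribe are in both denominators, so transcript abundance was not separated from methylation. Among the families, Rnf had 32 of 83 genes with a site, Usp 21 of 56, Klhl 13 of 37, Fbxl 6 of 18 and Fbxo 11 of 36. Trim, with 12 of 68, and Fbxw, with 2 of 24, had the smallest shares.

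**Figure D1:**
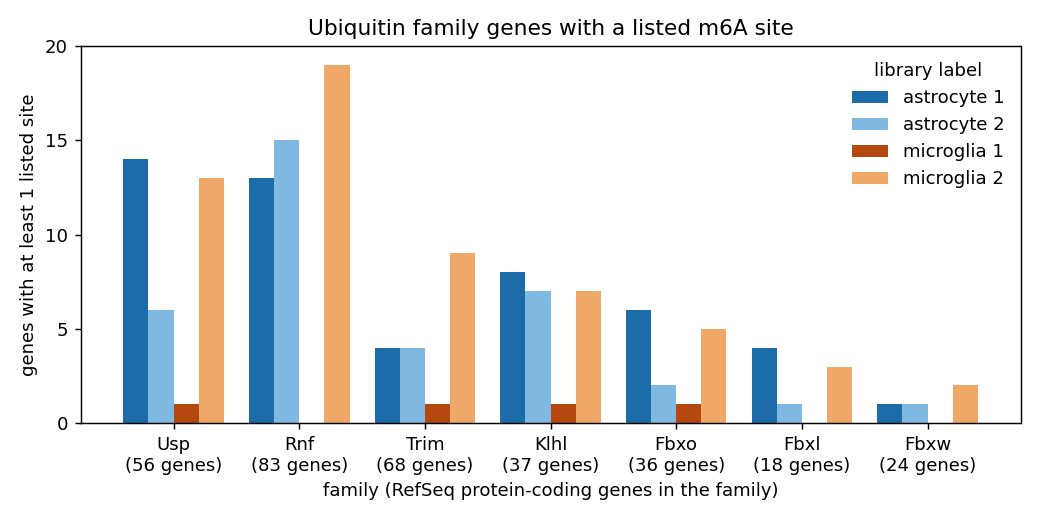
Number of genes with at least 1 listed site (vertical axis) in each family (horizontal axis, with the number of protein-coding genes of that family in RefSeq), with 1 bar per library. Rnf was the family with most listed genes in astrocyte 2 (15) and microglia 2 (19), Usp in astrocyte 1 (14), and microglia 1 had at most 1 gene in any family.

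The methylated base stood in the sequence GAC or AAC at every listed position, where the middle A is the base that was measured. These 3 bases are the only sequence the tables give. GAC was found at 147 of the 192 member positions, or 76.6% (exact 95% interval 69.9 to 82.4), and at 67.3% of the 10598 positions of all named genes. The interval treats positions as independent, although several can lie in 1 gene (14 in Trim9, 9 in Usp54). The difference between the 2 shares was not tested. The share of GAC was 92.3% in Fbxl (12 of 13 positions), 87.5% in Fbxo (14 of 16), 76.0% in Rnf (38 of 50), 72.7% in Klhl (16 of 22), 72.5% in Usp (37 of 51) and 71.4% in Trim (25 of 35). All 5 Fbxw positions were GAC. Per library, astrocyte 1 had GAC at 78.3% of 83 sites, astrocyte 2 at 69.0% of 42, microglia 1 at 75% of 4 and microglia 2 at 78.7% of 89. Over all named genes the same libraries stood at 67.6%, 65.0%, 56.8% and 69.4%. The order of the 3-mers by level was not the same in each library: the median of GAC sites was 70.0% and of AAC sites 62.2% in astrocyte 1, against 55.6% and 66.7% in microglia 2 and 90.9% and 93.3% in astrocyte 2. The AAC medians rest on 18, 19 and 13 member sites in that order. Over all named genes the GAC and AAC medians were 66.7% and 66.7% in astrocyte 1. They were 58.6% and 60.0% in microglia 2, and 80.0% and 80.0% in astrocyte 2.

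Levels covered most of the scale from 10%, the lowest level listed in named genes, to 100%. In astrocyte 1 member levels ran from 19.4% to 100% with a median of 66.7%, the same as the median of 66.7% over all its sites in named genes. Levels in astrocyte 2 ran from 25.0% to 100% with a median of 92.1%, where all named genes had 80.0%. In microglia 2 they ran from 20.0% to 100% with a median of 60.0%, where all named genes had 58.9%. The 4 levels of microglia 1 were 17.9% for Fbxo21, 18.5% for Trim58, 100% for Klhl15 and 100% for Usp11. All named genes of microglia 1 had a median of 100%, and 60.3% of their sites stood at 100%. A level of 100% was listed at 18.1% of member sites in astrocyte 1, 47.6% in astrocyte 2 and 14.6% in microglia 2, beside 27.3%, 37.9% and 15.3% of sites in all named genes. The ranges of the libraries overlapped throughout.

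**Figure D2:**
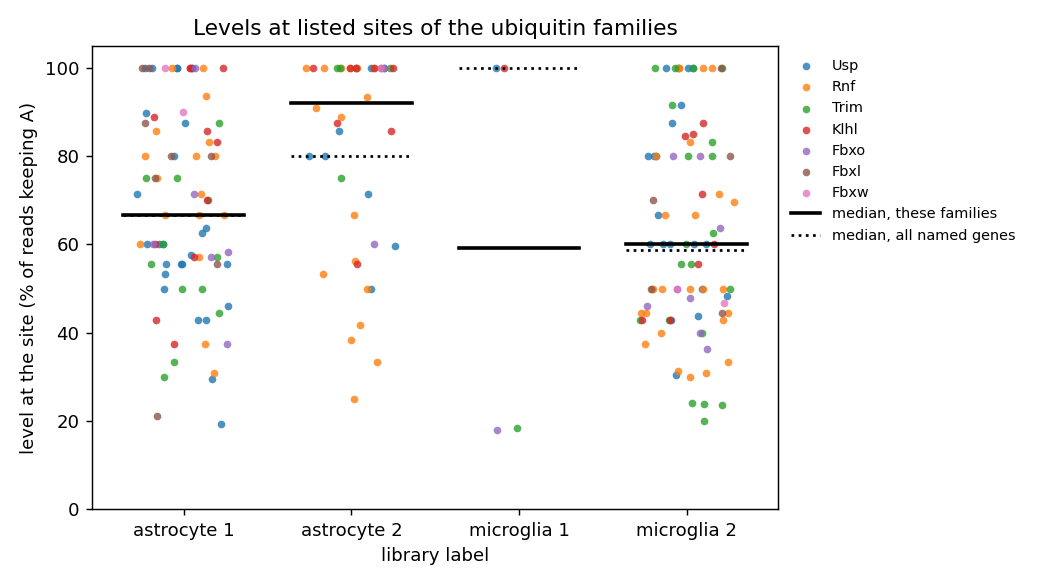
Level at each listed site (vertical axis, percent of reads keeping A) by library (horizontal axis), with 1 point per site coloured by family and points spread sideways for legibility. Solid lines mark the member median and dotted lines the median of all named genes; the 2 lines coincide in astrocyte 1 at 66.7% and stand at 92.1% and 80.0% in astrocyte 2.

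The Usp deubiquitinases had 51 positions in 21 genes, with a median of 63.6% over 57 listed sites. Usp54 had the most, with 9 positions that spanned 58359 bases of chromosome 14. Of these, 8 were listed in astrocyte 1, at 19.4% to 71.4% with a median of 51.7%, and the ninth in microglia 2 at 100%. No position of Usp54 was listed by both libraries, although 2 of them, 1 in each library, lay 117 bases apart. Usp2, a deubiquitinase with rhythmic transcripts in many tissues, had 5 positions on chromosome 9 (plus strand). Its site at position 44005879, in GAC, was listed at 89.7% in astrocyte 1, 59.6% in astrocyte 2 and 30.4% in microglia 2. These 3 libraries were widely spaced, with a mean of 59.9% ± 29.7 (SD, n = 3 libraries), and microglia 1 did not list the site. The SD pools libraries of both labels, so it is not a spread within 1 type. At position 44005132, in AAC and 747 bases away, the order of the libraries was opposite, with 57.7% in astrocyte 1 and 91.7% in microglia 2. The remaining Usp2 sites were each listed once, at 29.4% in astrocyte 1 (43986848), 60.0% in microglia 2 (43987206) and 50% in astrocyte 2 (44006355).

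Usp11, an X-linked deubiquitinase that acts in DNA repair, had a single position, 20584323 of chromosome X (plus strand), in GAC. The level there was 100% in each of the 3 libraries that listed it, astrocyte 1, microglia 1 and microglia 2. Usp19, which is anchored in the endoplasmic reticulum, had 4 positions on chromosome 9, and no library listed more than 2 of them. Its levels were 60.0% in astrocyte 1, 100% in astrocyte 2, and 43.8% and 60.0% in microglia 2, and the sites of astrocyte 1 and microglia 2 at 108379244 and 108379179 lay 65 bases apart. Usp31 had 3 positions in astrocyte 1, at 60.0%, 80.0% and 87.5%, and 1 in microglia 2 at 80.0%. Usp35 was listed in astrocyte 2 alone, with 3 positions at 71.4%, 80.0% and 100%, and Usp32 in microglia 2 alone, with 50%, 100% and 100%. Deubiquitinases listed in astrocyte 1 alone included Usp7, which acts on the ligase of p53, at 100%, Usp9x at 55.6% and Usp30, a mitochondrial enzyme, at 42.9%. Usp22, the deubiquitinase of the SAGA histone complex, was listed in astrocyte 2 alone, at 80.0%. These last 6 genes were chosen after their values were seen.

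The Rnf ligases had 50 positions in 32 genes, and 21 of these genes had a single position. None was listed in microglia 1. Rnf103, a ligase of the endoplasmic reticulum membrane, had 1 position, 71471735 of chromosome 6 (plus strand), in GAC. It was listed at 83.3% in astrocyte 1, 41.7% in astrocyte 2 and 40.0% in microglia 2, so that astrocyte 1 stood apart from the other two. Rnf139, another membrane ligase, involved in sterol sensing, had 5 positions within 1533 bases of chromosome 15. The one at 58771141 (plus strand), in GAC, was listed at 80.0% in astrocyte 1, 90.9% in astrocyte 2 and 83.3% in microglia 2, a mean of 84.7% ± 5.6 (SD, n = 3 libraries). This SD also pools libraries of both labels. Other sites of Rnf139 were listed at 57.1% in astrocyte 1 and at 69.6%, 50% and 50% in microglia 2. Rnf125, a ligase that limits the RNA sensor RIG-I, had a position at 21117064 of chromosome 18 (plus strand) with 100% in astrocyte 1, 93.3% in astrocyte 2 and 100% in microglia 2. That position is written in lower case in the tables, as were 9 of the 192 member positions (4.69%) and 4.89% of all named-gene positions. By the usual genome convention such letters mark repeats, but the tables do not state it.

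Rnf44 had 5 positions within 1805 bases of chromosome 13 (minus strand). Position 54828379 stood at 88.9% in astrocyte 2 and 66.7% in microglia 2. Astrocyte 1 listed 3 other bases of the gene, at 66.7%, 71.4% and 30.8%, and microglia 2 a further one at 30.8%. The widest gap among the Rnf genes was in Rnf130, the homologue of Drosophila Goliath, whose site at position 49962239 (chromosome 11, plus strand) stood at 100% in astrocyte 2 and 42.9% in microglia 2. Rnf111, a ligase that promotes TGF-beta signalling, had 1 site in astrocyte 2 and 1 in microglia 2, both at 50% but at bases 49662 apart. Rnf220 had 1 site in each of 3 libraries, at 37.5% in astrocyte 1, 100% in astrocyte 2 and 44.4% in microglia 2, and no base in common. Rnf152, a lysosomal ligase that acts on the mTORC1 pathway, held the closest pair of all members. Its sites at 105205134 and 105205143 of chromosome 1 (minus strand) lay 9 bases apart, one in AAC at 66.7% and the other in GAC at 80.0%, and both were listed in microglia 2 alone.

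The Trim genes had 35 positions in 12 genes, of which 14 lay in Trim9, the most of any member. Trim9 encodes a brain-enriched ligase that acts in axon branching. Its positions spanned 100435 bases of chromosome 12 (minus strand). Astrocyte 1 listed 9 of them at 30.0% to 75% with a median of 50%, and microglia 2 listed 6 at 20.0% to 55.6% with a median of 23.9%. Neither astrocyte 2 nor microglia 1 listed any. The 2 libraries had only position 70337104 in common, in AAC, at 30.0% and 23.8%. Both libraries with Trim9 sites were those with sites in most astrocyte and oligodendrocyte markers, while of 8 neuron markers astrocyte 1 listed 2 and microglia 2 listed 0. The part of other cell types in the Trim9 sites was not tested. Trim2, a ligase of neurofilament light chain, was listed in the same libraries, with 1 site at 75% in astrocyte 1 and sites at 83.3%, 60.0% and 62.5% in microglia 2. One of these lay 27 bases from the site of astrocyte 1.

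Trim8 had 4 positions, all in GAC and all in microglia 2, at 50%, 42.9%, 91.7% and 80.0%. The lower pair and the higher pair were separated by 12525 bases. Trim44, a member without a RING domain, had position 102134668 of chromosome 2 (minus strand) at 100% in astrocyte 2 and 55.6% in microglia 2, and another site at 70.0% in astrocyte 1. Trim11 had a site at 100% in astrocyte 2 and another at 42.9% in microglia 2. Trim25, which activates RIG-I, was likewise listed at 100% in astrocyte 2 and 80.0% at another base in microglia 2. Trim58, known from red cell maturation, was the 1 member gene listed in microglia 1 alone, at 18.5%. These last 2 were named after their values were seen.

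The Klhl adaptors had 22 positions in 13 genes and the highest median of the families with more than 20 listed sites, 85.4% over 28 sites. Klhl15, an X-linked adaptor of cullin 3, held the 1 member position listed in all 4 libraries, 93320951 of chromosome X (plus strand), in GAC. Astrocyte 1, astrocyte 2 and microglia 1 each listed it at 100%, and microglia 2 at 85.0%, so that 1 library stood below 3 equal ones. On the log2 odds scale, with levels limited to 0.01 to 0.99, the astrocyte minus microglia difference was 2.06 with a standard error of 1.61 (limma, adjusted p = 0.679). Its size depends on those limits, because 3 of the levels are 100%. With limits of 0.05 to 0.95 the difference was 0.873. The level was higher in both libraries labelled astrocyte than in 1 of the 2 labelled microglia. This was the only member position among the 354 positions of the whole table that could be tested. That table holds 34741 listed sites, including those outside named genes. In a fit of named genes only, 48 positions were tested and 0 were called. Over all 354, limma called 0 at an adjusted p under 0.05 (0% of those tested) and 16 had an unadjusted p under 0.05, none of them a member. A second position of Klhl15, 93316614, was listed at 87.5% in astrocyte 2 alone.

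Klhl28 had 4 positions, at 88.9% and 70.0% in astrocyte 1 for a pair 26 bases apart, 55.6% in astrocyte 2 and 42.9% in microglia 2. Klhl22, an adaptor that regulates nutrient signalling to mTORC1, had 3 positions within 225 bases of chromosome 16. Microglia 2 listed 42.9% in GAC and 87.5% in AAC at bases 31 apart, and astrocyte 1 listed 57.1% at the third. Klhl24 had 1 site each in astrocyte 1 (60.0%) and microglia 2 (55.6%), 456 bases apart. Klhl36 and Klhl26 were listed at the same base by 2 libraries with nearly equal levels, 100% in both astrocyte libraries for Klhl36, and 85.7% in astrocyte 2 and 84.6% in microglia 2 for Klhl26. Klhl17, which binds actin, had its base at 37.5% in astrocyte 1 and 71.4% in microglia 2. These last 3 were named after their values were seen.

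F-box genes had 34 positions in 19 genes. Fbxl17, which takes apart wrongly paired BTB proteins, had 4 positions on chromosome 17 (minus strand), all in GAC. Position 63794843 stood at 87.5% in astrocyte 1 and 44.4% in microglia 2, and the other 3 were listed once each, at 75% and 80.0% in astrocyte 1 and 100% in microglia 2. Fbxo21 was listed in 3 libraries at 4 different bases of chromosome 5 (plus strand). Microglia 1 had 17.9% at 118114939, astrocyte 1 had 60.0% at 118146368, and microglia 2 had 63.6% at 118146527 and 40.0% at 118146929. The site of microglia 1 thus lay 31429 bases from the nearest of the rest. Fbxw11, the paralogue of the F-box protein that acts on beta-catenin, had 4 positions within 1634 bases, at 100% and 90.0% in astrocyte 1, 100% in astrocyte 2 and 46.7% in microglia 2.

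Fbxl5, the iron sensor that controls iron regulatory protein 2, had sites at 21.1% and 55.6%, in astrocyte 1 alone. Fbxl14 had 80.0% and 100% in astrocyte 1 and 100% at another base in astrocyte 2. Fbxo28 had the base at 182144429 of chromosome 1 (minus strand) at 60.0% in astrocyte 2 and 50% in microglia 2, and another 85 bases away at 80.0% in microglia 2. Fbxo7, a gene of inherited parkinsonism, had 36.4% and 46.2%, Fbxl18 70.0% and 80.0%, and Fbxw4 50%, all in microglia 2 alone. Fbxo11 was listed in astrocyte 2 alone, at 100%.

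**Figure D3:**
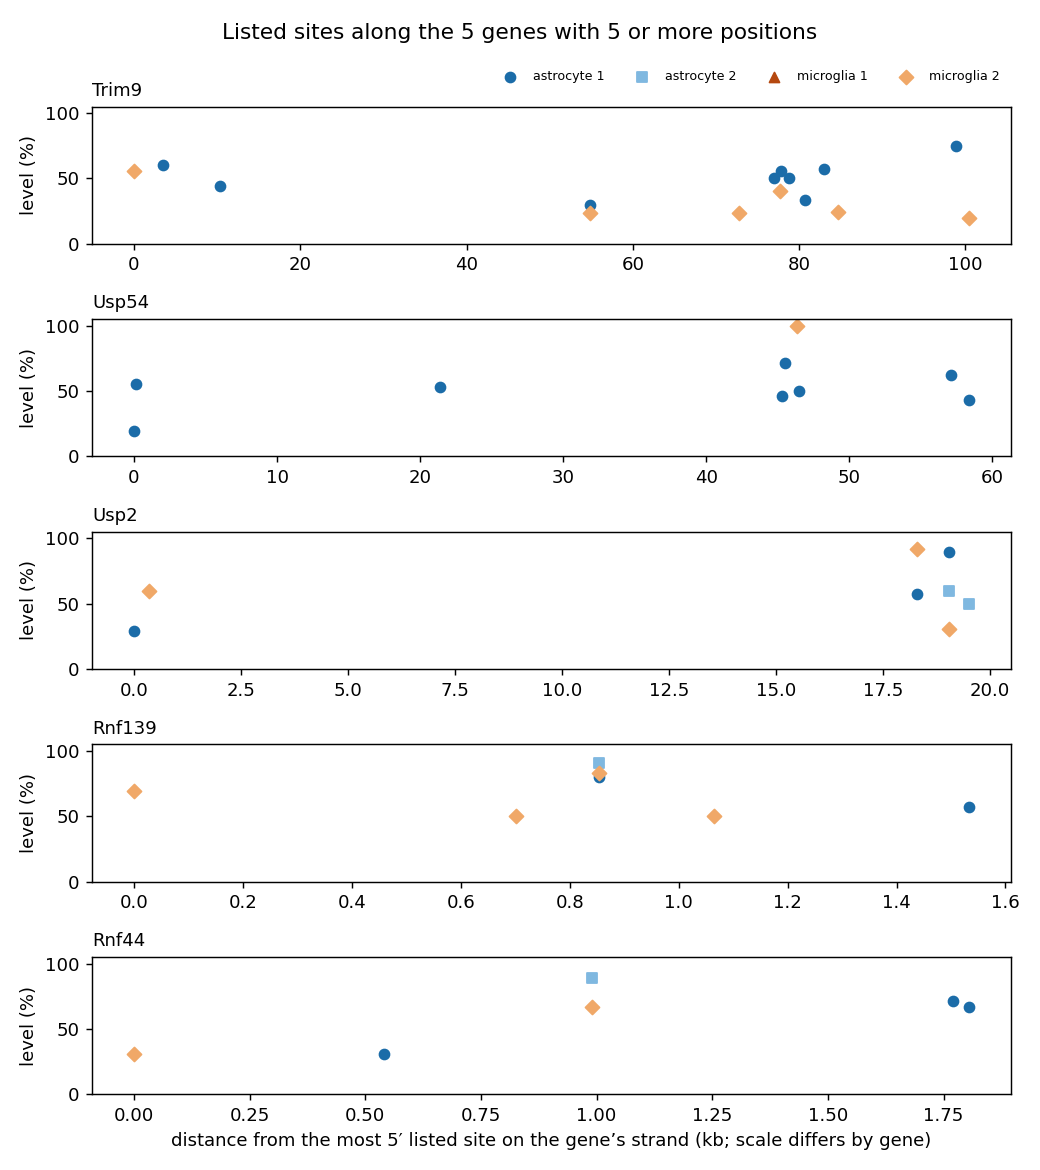
Level at each listed site (vertical axes, percent) against distance in kilobases from the most 5′ listed site on the strand of the gene (horizontal axes, different for each gene), for the 5 genes with 5 or more positions and with 1 marker per library. Sites of Trim9 and Usp54 are spread over 100435 and 58359 bases, those of Rnf139 and Rnf44 over 1533 and 1805.

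Most member genes with several positions had some of them in 1 library. Of 44 member genes with 2 or more positions, 35 had at least 2 in the same library and 9 had at most 1 in any library, Rnf220 and Trim11 among the latter. This split was not counted over all named genes, so it cannot be called particular to the members. Members had 1.98 positions per gene, against 1.92 over all named genes. A single position was found in 54.6% of member genes and 58.8% of all named genes, and 3 or more in 20.6% and 20.4%. Positions within 100 bases of another in the same gene made up 11.5% of member positions (22 of 192, exact 95% interval 7.32 to 16.8) and 14.4% of all named-gene positions. Whether a position lies in an exon, an intron or an untranslated region was not determined.

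The same base was listed by 2 or more libraries at 19 of the 192 member positions, or 9.90% (exact 95% interval 6.06 to 15.02), close to 9.72% over all named genes. Of the 19, 13 were in 2 libraries, 5 in 3 and 1 in 4, and 14 were in GAC. The median level was 74.7% at the shared positions and 63.6% at positions listed once, with 75.8% and 62.5% over all named genes. Klhl had the highest share of shared positions (4 of 22) and Rnf the most (7 of 50), while Usp had 4 of 51, Trim 2 of 35, Fbxo 1 of 16, Fbxl 1 of 13 and Fbxw none of 5. The median spread between the highest and lowest library at a shared base was 15 points for members and 9.09 points for all named genes. For members it ranged from 0 points in Usp11 and Klhl36 to 59.3 points in Usp2. The 2 sets of shared bases differ in the libraries they join. Astrocyte 1 and microglia 1 shared 333 bases over all named genes, 198 of them at equal levels, and 2 member bases. The part of this in the 2 median spreads was not tested.

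**Figure D4:**
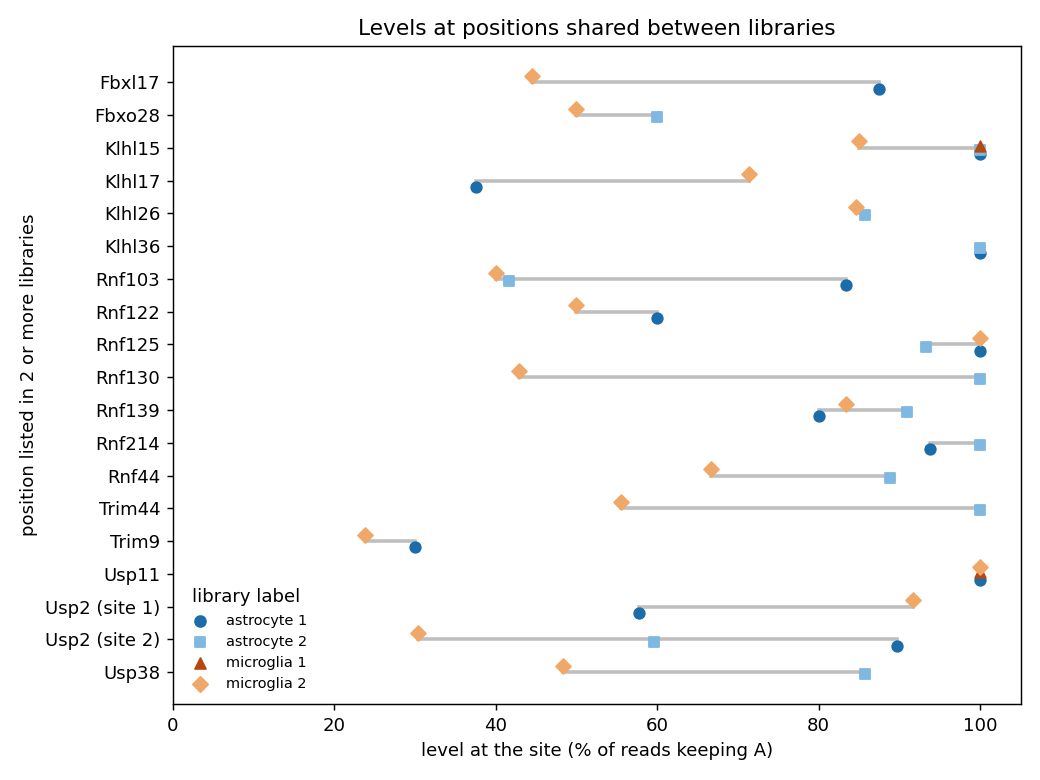
Level (horizontal axis, percent of reads keeping A) at the 19 member positions listed in 2 or more libraries (vertical axis, by gene), with 1 marker per library, drawn slightly apart in height, and a grey line from the lowest to the highest. The lines of Usp2 (site 2), Rnf130, Trim44, Rnf103 and Fbxl17 are the longest, at 59.3, 57.1, 44.4, 43.3 and 43.1 points.

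Pairs of libraries differed in what they shared. Astrocyte 1 and microglia 2 had 11 positions in common, 13.3% of the former and 12.4% of the latter, against 12.9% and 16.3% over all named genes. Astrocyte 2 and microglia 2 also had 11, which was 26.2% of the sites of astrocyte 2 and 12.4% of those of microglia 2, against 10.3% and 6.40% over all named genes. The astrocyte pair had 7, or 8.43% and 16.7%, against 4.97% and 10.1%. Pairs with microglia 1 had 1 or 2. At the 11 bases of astrocyte 2 and microglia 2 the level was higher in astrocyte 2 at 10 and lower at 1, Rnf125, with medians of 88.9% and 55.6%. Over the 242 such bases in all named genes it was higher in astrocyte 2 at 114, equal at 81 and higher in microglia 2 at 47. The medians there were 98.0% in astrocyte 2 and 83.3% in microglia 2. The more frequent direction was the same in both sets. The median difference was 15 points at the member bases and 0 points over all named genes. At the 11 bases of astrocyte 1 and microglia 2 the level was higher in astrocyte 1 at 6, equal at 2 and higher in microglia 2 at 3, against 283, 146 and 189 of the 618 such bases in all named genes.

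By gene, 60 of the 97 members had sites in 1 library only, 24 in 2, 12 in 3 and 1 in 4. These are 61.9%, 24.7%, 12.4% and 1.03% of members, against 61.1%, 27.9%, 8.63% and 2.37% of all named genes. A total of 12 genes was listed in astrocyte 1 and microglia 2 and no other library, among them Trim9, Trim2, Usp54, Usp31, Fbxl17, Klhl22 and Klhl24. This was 12.4% of members, against 15.7% of all named genes. Another 8 were listed in astrocyte 2 and microglia 2 alone, 8.25% against 2.97%, among them Rnf111, Rnf130, Trim11 and Fbxo28. The 10 listed in all libraries but microglia 1 were Usp2, Usp19, Rnf44, Rnf103, Rnf125, Rnf139, Rnf220, Trim44, Klhl28 and Fbxw11, or 10.3% against 4.89%. No member was listed in astrocyte 2 and microglia 1 alone, where 1.88% of all named genes were. Microglia 1 had only 4 member sites, which bounds every count that requires it.

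Compared as labelled, 4 member genes (Fbxl14, Klhl36, Rnf214 and Usp3) had a site in both astrocyte libraries and none in a microglia library. This was 4.12% of members, beside 4.09% of all named genes. No member gene showed the reverse, which 0.869% of all named genes did. At the level of single bases, 2 member positions were in both astrocyte libraries only, those of Klhl36 and Rnf214 (1.04%, beside 0.651% of all named-gene positions). None was in both microglia libraries only, beside 0.396%. The genes of the first group hung on sites at 100%: with those left out the count was 0. It was 17 without astrocyte 1, 25 without astrocyte 2 and 14 without microglia 2. Leaving a library out adds genes to the 4. Without astrocyte 1 these were the 13 listed in astrocyte 2 alone (13.4% of members, 13.2% of all named genes). Without astrocyte 2 they were the 21 listed in astrocyte 1 alone (21.6% and 24.3%). Without microglia 2 they were the 10 listed in all libraries but microglia 1 (10.3% and 4.89%). The count for microglia alone, 0 in all 4 libraries, was 25 without microglia 1 and 2 without astrocyte 1. Those 25 were listed in microglia 2 alone (25.8% of members, 17.8% of all named genes). The 2 were listed in all libraries but astrocyte 2 (2.06% and 2.12%).

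Over the libraries, the share of named-gene sites in these families had a mean of 1.76% for the astrocyte label and 1.36% for the microglia label, 0.397 points higher for astrocyte (p = 1 by an exact two-sided permutation test). The difference turned to -0.593 points without microglia 1. Median member levels had means of 79.4% and 59.6%, 19.8 points apart (p = 0.333 by the same exact test), which is the smallest p that 2 libraries against 2 can give. The microglia mean takes in 59.3% for microglia 1, the midpoint of only 4 levels. Over all named genes the means were 73.3% and 79.4%, and the difference, -6.09 points, had the other sign. For members it was 7.04 points without astrocyte 2, 32.5 points without astrocyte 1 and 0.227 points with levels under 20% left out, which removes 2 of the 4 sites of microglia 1. The share of GAC had means of 73.7% and 76.8%, -3.15 points for astrocyte minus microglia (p = 0.667 by the same exact test), and it turned to 1.49 points without astrocyte 2 and to 9.32 points with sites at 100% left out. With levels under 20% left out it was -15.8 points. Over all named genes the means were 66.3% and 63.1%, a difference of 3.23 points in the other direction. None of these 3 permutation tests could pass a threshold of 0.05 in this design.

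Other genes of the ubiquitin system were listed to differing extents. For reference, 22.0% of all protein-coding genes (4809 of 21900) had a site in at least 1 library. The lists below were not tested against that share. Sites in at least 1 library were found in 21 of 31 HECT and RBR ligases, 25 of 43 other RING ligases, 16 of 39 cullins and adaptors, 11 of 33 other deubiquitinases, 8 of 33 conjugating enzymes, 9 of 37 proteasome subunits and 2 of 10 ubiquitin and activating enzyme genes. For HECT and RBR ligases, astrocyte 1 listed 16 genes, astrocyte 2 listed 5, microglia 1 listed 3 and microglia 2 listed 5. Of all protein-coding genes, the shares in that order were 12.8%, 6.87%, 3.07% and 10.8%. For the other RING ligases the same libraries listed 14, 8, 4 and 12. Examples were Huwe1, a large HECT ligase, with 3 sites in astrocyte 1, 1 in astrocyte 2 and 2 in microglia 2, and Birc6, a large conjugating enzyme that blocks apoptosis, with 3, 2 and 4. Neither had a site in microglia 1. Birc6 and Huwe1 were chosen after their values were seen. Conjugating enzymes, other deubiquitinases and proteasome subunits had at most 7 listed genes in any library, and ubiquitin and activating enzyme genes at most 1.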

How the data were processed

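m6A was measured by GLORI in 4 libraries, 2 labelled astrocyte and 2 labelled microglia, and each has 1 table of called sites. Per the series' design text, sites were called with GLORI-tools; the submitters' processing notes also name STAR and mm39. Levels are fractions that the authors deposited without coverage, shown here as percent. The sources used here give no calling thresholds. The lowest level listed in named genes was 10%, so lower levels, if any, do not enter the medians or the sharing counts. Positions are the 1-based mm39 positions of the tables. All 97 member symbols matched a RefSeq symbol of GRCm38.p6, a table used for names and gene counts only.

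Libraries were matched by chromosome, position and strand. Levels were tested with limma 3.58.1 (R 4.3.3) on log2 odds over sites listed in all 4 libraries, adjusted over the whole table by the Benjamini-Hochberg method; sites tied within both types have no spread and had no test. The test was checked on simulated data. Library values were compared by exact permutation. Members, gene lists and tests were chosen with earlier results of these data known. Genes were named by rule: those with a position in 3 or 4 libraries, the 4 with most positions per family, those of the 5 widest ranges, and those of the closest pair per family; exceptions are stated. Neuron, precursor, vascular and blood marker lists were also counted: oligodendrocyte precursor markers had sites in 3, 0, 1 and 1 of 6 genes in the order astrocyte 1, astrocyte 2, microglia 1 and microglia 2, endothelial and mural markers in 1, 0, 0 and 2 of 8, and border macrophage and blood myeloid markers in 0, 1, 1 and 0 of 8.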

Additional observations from a re-analysis of the deposited data

How the results depend on the processing

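Read depth is unknown and limits every level. The difference in the share of named-gene sites kept its direction under 9 of 11 alternatives; it turned to -0.593 points without microglia 1 and -0.56 points in the replicate 2 libraries alone, and leaving out 1 library at a time gave -0.593 to 1.39 points. The difference in median level had the same sign under all 11 alternatives run, from 7.04 to 32.5 points with 1 library left out, but fell from 19.8 to 0.227 points (exact permutation p = 1) with levels under 20% left out. The GAC difference turned under 3 of 9, to 9.32 points with sites at 100% left out, 1.49 points without astrocyte 2 and 3.31 points in the replicate 1 libraries alone, and lay between -7.78 and 1.49 points with 1 library left out and at -15.8 points with levels under 20% left out. Member genes in both libraries of one type only numbered 4 for astrocytes and 0 for microglia. For astrocytes the count was 0 without sites at 100%, 2 when the same base was required, 4 to 25 with 1 library left out, 47 in the replicate 1 libraries alone and 17 in the replicate 2 libraries alone. For microglia it was 0 to 25 with 1 library left out, and 1 and 39 in those pairs. Fewer libraries make this rule easier to meet. The counts in the replicate 1 and replicate 2 pairs were not set beside those over all named genes. Limma called 0 sites of the whole table under each of its 10 alternatives, with 2 to 19 sites at an unadjusted p under 0.05, none a member. Member sites tested numbered 5 when 1 library of each type sufficed, 4 without microglia 1, 0 without microglia 2 and 1 in the other 7, so the lack of member calls says little. The adjusted p of the Klhl15 site ran from 0.455 to 0.999 over the 8 that could test it. The labels share replicate numbers but do not say that these mark a shared animal or day, and deviations of same-numbered libraries correlated at -0.07 over 354 sites. With the replicate number as a block, limma called 0 member sites of 1 tested, and the 3 library differences were 0.397, 19.8 and -3.15 points with p = 1, 0.5 and 1 by exact sign permutation. The comparisons of replicate 1 or replicate 2 libraries alone were added after the data were seen.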

Other observations

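Of the 92 listed genes in the lists of other ubiquitin system genes, 5 were listed by astrocyte 2 and microglia 1 alone (5.43%, beside 1.88% of all named genes): Cbl, Vhl, Otud5, Kctd12 and Ivns1abp. The pattern and the genes were picked after their values were seen. Kctd12, a BTB protein that binds GABA-B receptors, had 3 listed bases in astrocyte 2 and 4 in microglia 1, 7 different ones with a median of 57.9%. Ivns1abp, a kelch protein, had 3 and 2 sites at 5 different bases with a median of 54.5%. Vhl, the substrate receptor of a cullin 2 ligase, had 2 and 1 sites, and Cbl and Otud5 had 1 in each library. Those libraries are the ones with sites in most microglia markers (14 and 12 of 16). A link of the 5 genes to a cell type was not tested. The same count was not made for other pairs of libraries in these lists.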
